A study of Mus musculus with 7 samples.

Results

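Ago2 proteins carrying changes in the MID loop were set against Ago2 proteins carrying changes in the guide-binding pocket and its PIWI side, by the miRNAs and hairpin arms that each protein held. The loop class has 2 libraries, GKT_GKGT (the GKT stretch of the loop written as GKGT) and PGKTP_AAAAA (the PGKTP stretch replaced by alanines). The pocket class has 3 libraries, K566A, Q548A and R792A_C793A. Each library was put in its class by its genotype, and the classes were chosen with earlier results of these data known. These 5 libraries are 5 of the 7 in the series. The other two are wild-type Ago2, given below as a value beside the mutants, and an empty control. All 6 Ago2 libraries share 1 host, mouse embryonic stem cells with no Argonaute of their own, and 1 capture, an anti-Flag immunoprecipitation of Flag-tagged Ago2 followed by small-RNA sequencing. Each genotype is 1 library. A class is therefore a set of different mutants, and every p-value below measures the spread between these libraries, not between cultures of 1 genotype. An exact two-sided test of 2 against 3 libraries cannot give a p below 0.2. Lying wholly on one side is thus given as a description. The labels' amino acid changes could not be checked from miRNA counts.

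A miRNA hairpin is cut into a duplex of a 5p arm and a 3p arm, and Argonaute keeps one of them as its guide while the other is discarded. The MID domain holds the guide's 5′ end: a pocket of polar and basic residues, K566 among them, grips the terminal phosphate, and a nearby loop faces the first base. The isolated MID domain of human AGO2 is known to bind UMP and AMP more tightly than CMP and GMP. R792 and C793 lie in the PIWI domain, which adjoins the MID domain. The series concerns how far Argonaute itself sets which arm is kept.

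Both arms of 8 hairpins are shown as examples. They were picked among hairpins whose arm use did not overlap between the classes and whose arms differ in the first base. Capitals mark the seed, bases 2 to 8 from the 5′ end. The lower-case letter before the capitals is the first base. Sequences are RefSeq's, from the GRCm38.p6 build.
miR-15b-3p: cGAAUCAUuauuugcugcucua
miR-15b-5p: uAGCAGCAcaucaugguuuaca
miR-28-3p: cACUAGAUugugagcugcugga
miR-28-5p: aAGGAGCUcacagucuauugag
miR-30e-3p: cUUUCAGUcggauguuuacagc
miR-30e-5p: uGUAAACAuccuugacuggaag
miR-106b-3p: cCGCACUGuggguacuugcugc
miR-106b-5p: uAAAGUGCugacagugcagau
miR-199a-5p: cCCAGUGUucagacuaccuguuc
miR-199a-3p: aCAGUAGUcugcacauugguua
miR-200b-5p: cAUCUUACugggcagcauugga
miR-200b-3p: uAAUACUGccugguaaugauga
miR-291a-5p: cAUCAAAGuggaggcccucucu
miR-291a-3p: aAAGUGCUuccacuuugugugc
miR-296-3p: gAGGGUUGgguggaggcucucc
miR-296-5p: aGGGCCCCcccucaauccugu
In each pair the first line is the arm whose share was higher in both loop mutants than in any pocket mutant. It begins with C in 7 of the 8 pairs and with G in miR-296, and the other arm begins with A or U. The 8 are a selection, so this is not a share over all hairpins. Of 104 hairpins whose arm shares did not overlap between the classes, the higher arm began with C in 40. In miR-872, not shown, the A-first arm was higher and the other arm begins with U. In the deposited mm9 coordinates the miR-15b-3p locus is chr3:68813735-68813756, that of miR-291a-5p is chr7:3218933-3218954 and that of miR-296-3p is chr2:174092559-174092580. By the GENCODE M21 annotation the miR-15b, miR-28, miR-30e, miR-106b and miR-200b hairpins lie in introns of Smc4, Lpp, Nfyc, Mcm7 and Ttll10 on the same strand. miR-296 is intergenic there.

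The loop libraries held 49657466 counts (GKT_GKGT) and 24921544 counts (PGKTP_AAAAA), against 14914048 (K566A), 94700428 (Q548A) and 56066232 (R792A_C793A) in the pocket libraries and 94842507 in wild type. miR-292-5p, a guide of the embryonic stem cell miR-290 cluster, took 70.5% and 69.5% of the counts in GKT_GKGT and PGKTP_AAAAA, against 21.7%, 65.3% and 57.3% in K566A, Q548A and R792A_C793A and 63.7% in wild type. K566A thus stood apart from the other 5 Ago2 libraries, and the main counts are also given without it. Of the counts outside miR-292-5p, the rest of the miR-290 cluster made up 28.1% and 34.3% in the loop mutants, against 47.9%, 35.3% and 37.4% in the pocket mutants. Fibroblast-associated miRNAs summed to 0.685% and 0.494% of those counts in the loop mutants, against 1.23%, 0.661% and 0.755% in the pocket mutants, with 22 of 27 names counted in every mutant. Markers of differentiated tissues summed to 1.52% and 1.48% in the loop mutants, against 3.56%, 1.61% and 2.04% in the pocket mutants, and 8 of 30 names were at 0 in all mutants. The part of these differences in the results below was not tested. A change in the amount of a miRNA in the cell and a change in its loading cannot be told apart by the level of a single arm.

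Levels are given as CPM (counts scaled to a common library total) adjusted by TMM, a factor that centres most miRNAs between libraries. Of 950 miRNAs, 830 had a count in a mutant, and 337 reached a mean of 10 CPM over the 6 Ago2 libraries and were tested. Both loop mutants lay above all 3 pocket mutants for 43 miRNAs (12.8% of those tested) and below all 3 for 63 (18.7%). The nearest loop and pocket libraries were at least 2-fold apart for 17 miRNAs on the higher side (5.04%) and 5 on the lower side (1.48%), together 22 (6.53%). edgeR's quasi-likelihood test with Benjamini-Hochberg adjustment called 0 miRNAs in either direction at 0.05. At an unadjusted p under 0.05 it found 23 higher in the loop mutants (6.82%) and 10 lower (2.97%), and the lowest adjusted p was 0.113. DESeq2 called 15 higher (4.64% of the 323 it adjusted) and 4 lower (1.24%), all 19 of them without overlap between the classes. Of its 15, 11 begin with C, and its 4 are the A-first miR-148a-5p, miR-290-5p and miR-409-5p and the U-first miR-154-5p. The higher and lower counts depend on the scaling, and were 20 and 142 with total counts as library size and 54 and 52 with median-of-ratios factors. The median log2 difference between loop and pocket mutants over all tested miRNAs was -0.29 with TMM, -1.10 with totals and -0.23 with median-of-ratios factors. Without K566A, 68 miRNAs lay above and 104 below.

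miRNAs that begin with C lay more often above the pocket mutants, and miRNAs that begin with A more often below, than tested miRNAs as a whole (12.8% above and 18.7% below). No test was run on these counts. Among 55 tested miRNAs that begin with C, 20 (36.4%) lay above all pocket mutants in both loop mutants and 2 (3.64%) lay below. Among 77 that begin with A, 6 lay above and 23 (29.9%) below. U-first miRNAs, the most numerous kind, had 8 above and 23 below of 129, and G-first miRNAs had 2 above and 1 below of 26. Where the classes did not overlap, C-first miRNAs thus lay mostly on the higher side and A-first miRNAs mostly on the lower side. The U-first share below, 17.8%, was close to the 18.7% of all tested miRNAs. Their share above, 6.20%, was under the 12.8% of all tested miRNAs. Relative to all tested miRNAs, the median log2 difference was 1.22 for C-first, 0.87 for G-first, -0.13 for U-first and -0.35 for A-first miRNAs. The order of those medians was the same with median-of-ratios factors (1.11, 0.86, -0.13 and -0.34) and with total counts (1.28, 1.10, -0.15 and -0.18). With total counts as library size 13 C-first miRNAs lay above and 7 below, and 2 A-first miRNAs lay above and 41 below. Of all tested miRNAs 5.93% then lay above and 42.1% below. The share below with total counts was 53.2% for A-first, 48.8% for U-first and 12.7% for C-first miRNAs. The counts also changed when 1 library was left out. A class with 1 library fewer is easier to separate by construction, and the counts over all tested miRNAs rose as well. C-first miRNAs had 31 above and 3 below without K566A, 23 and 5 without GKT_GKGT and 37 and 7 without PGKTP_AAAAA. A-first miRNAs had 11 above and 39 below without K566A, 8 and 34 without GKT_GKGT and 15 and 28 without PGKTP_AAAAA. Without PGKTP_AAAAA the share of A-first miRNAs below, 36.4%, was under the 44.2% of U-first miRNAs. With any other library left out it was above theirs, such as 50.6% against 29.5% without K566A. Counts over all tested miRNAs for these omissions are given with the other alternatives near the end. U-first miRNAs had 14 above and 38 below without K566A, 19 and 35 without GKT_GKGT, 12 and 57 without PGKTP_AAAAA and 17 and 35 without Q548A. The balance of G-first miRNAs depended on the loop library kept, with 2 above and 8 below without GKT_GKGT and 15 above and 1 below without PGKTP_AAAAA.

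**Figure D1:**
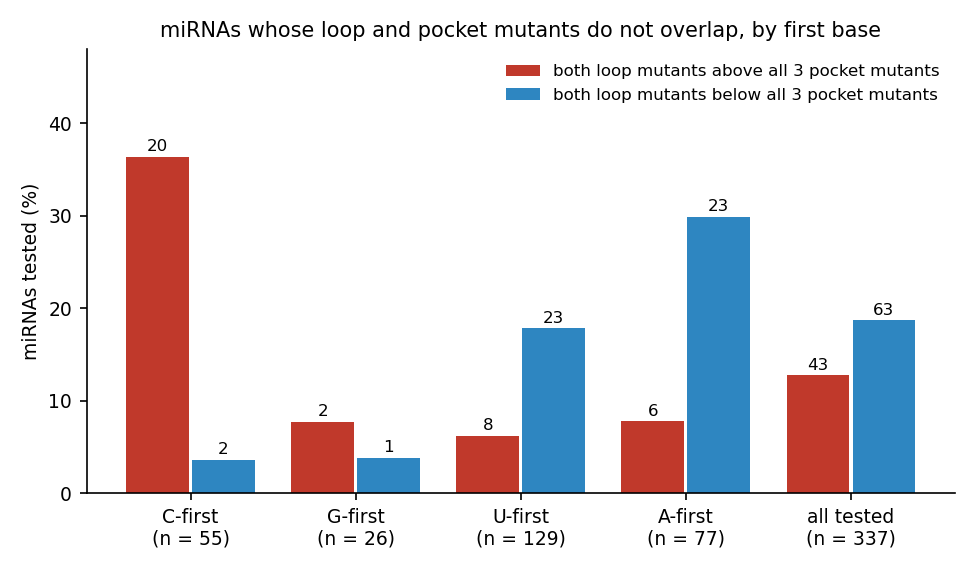
Percentage of tested miRNAs whose TMM-scaled CPM lay above or below all pocket mutants in both loop mutants, by first base of the mature sequence. C-first miRNAs lay above in 36.4% and below in 3.64%, and A-first miRNAs lay above in 7.79% and below in 29.9%.

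The sequences were also compared position by position. Among miRNAs higher in both loop mutants, C at position 1 was 36.4 percentage points more frequent than among all tested miRNAs, whereas no base at positions 2 to 10 differed by more than 15.5 points. Among those lower in both loop mutants, A at position 1 was 20.1 points more frequent, and no base at positions 2 to 10 differed by more than 14.5 points. The classes also differed in the make-up of the counts outside miR-292-5p. Of counts with an assigned first base, miR-292-5p left out, C-first miRNAs made up 25.3% and 18.9% in GKT_GKGT and PGKTP_AAAAA, against 8.27%, 12.9% and 16.5% in K566A, Q548A and R792A_C793A and 13.1% in wild type. The share of A-first miRNAs was 33.98% and 36.8% in the loop mutants, against 53.3%, 49.9% and 45.1% in the pocket mutants and 49.1% in wild type. Neither share overlapped between the classes with miR-292-5p left out. That miRNA, itself A-first, took 70.5% and 69.5% of all counts in the loop mutants, against 21.7%, 65.3% and 57.3% in the pocket mutants. These shares therefore do not describe whole libraries.

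**Figure D2:**
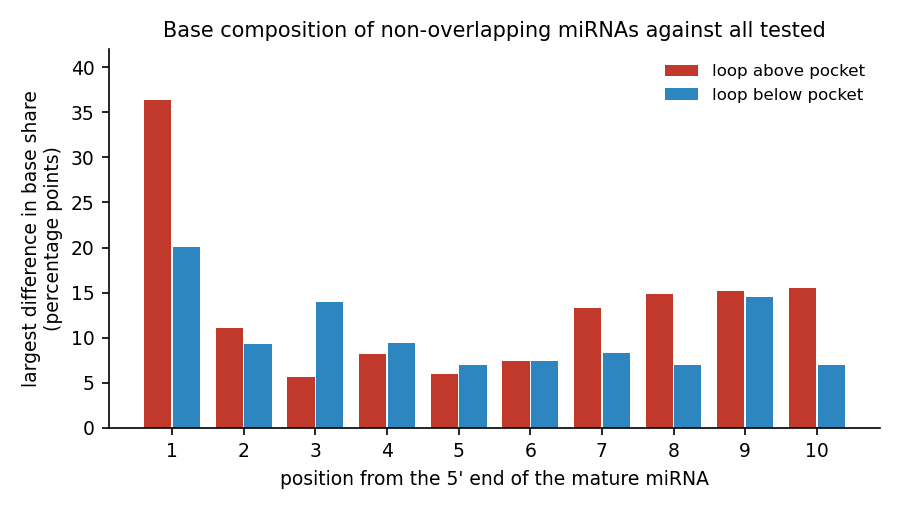
Largest difference in base frequency, in percentage points, between miRNAs without overlap between the classes and all tested miRNAs, by position from the 5′ end. Position 1 stands out in both sets, at 36.4 points in the higher set and 20.1 points in the lower set.

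Major and minor arms were counted apart. C-first miRNAs that were the minor arm of their hairpin in wild type lay above all pocket mutants in 7 of 17 cases, and those that were the major arm in 13 of 38. U-first minor arms lay below in 8 of 22 cases and above in 0, against 15 below and 8 above among 106 U-first major arms. A-first miRNAs lay below in 9 of 28 cases as minor arms and in 14 of 49 as major arms. Of all minor arms 13.1% lay above and 23.8% below, and of all major arms 12.4% and 17.1%.

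Among tested miRNAs averaging 100 CPM or more, the 12 with the widest gap on the higher side included 8 that begin with C, and the 12 on the lower side included 9 that begin with A and none that begins with C. miR-296-3p, which begins with G, had the widest gap of the 12 on the higher side. It had 16059 and 32559 CPM in GKT_GKGT and PGKTP_AAAAA, against 4348, 4199 and 3495 CPM in K566A, Q548A and R792A_C793A and 9902 CPM in wild type. Both loop mutants were above every pocket mutant and wild type fell between the classes (edgeR log2 difference 2.60 ± 0.58 SE, adjusted p = 0.18). miR-291a-5p, the C-first arm of a miR-290 cluster hairpin, had 18497 and 10521 CPM in the loop mutants, against 1167, 4004 and 2466 CPM in the pocket mutants and 5484 CPM in wild type. Its nearest loop and pocket libraries were 2.63-fold apart (log2 difference 2.51 ± 0.69 SE, edgeR adjusted p = 0.208).

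miR-106b-3p, the C-first arm of a miR-17-92 paralog, had 10062 and 1795 CPM in GKT_GKGT and PGKTP_AAAAA, against 813, 208 and 279 CPM in K566A, Q548A and R792A_C793A and 1638 CPM in wild type. GKT_GKGT was far above the other four mutants, and PGKTP_AAAAA lay close to wild type. miR-30e-3p had 534 and 197 CPM in the loop mutants, against 59.8, 34.7 and 46.4 CPM in the pocket mutants and 63.6 CPM in wild type, so wild type lay nearer the pocket mutants. miR-28-3p had 377 and 173 CPM in the loop mutants, against 15.9, 58.7 and 44.0 CPM in the pocket mutants and 51.1 CPM in wild type. Its smallest value among the pocket mutants was in K566A. miR-151-3p had 7713 and 15176 CPM in the loop mutants, against 1281, 560 and 3634 CPM in the pocket mutants. The classes did not overlap for miR-99b-3p, miR-129-5p, miR-200b-5p, miR-361-3p, miR-708-3p and miR-92b-5p either, with edgeR log2 differences between 1.39 and 2.96. Of these, miR-361-3p begins with U and miR-92b-5p with A.

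Among the miRNAs lower in both loop mutants, miR-409-5p, an A-first miRNA of the imprinted Dlk1-Dio3 cluster, had the widest gap. It had 14.4 and 14.1 CPM in GKT_GKGT and PGKTP_AAAAA, against 193, 91.4 and 74.1 CPM in K566A, Q548A and R792A_C793A and 78.7 CPM in wild type (edgeR log2 difference -3.07 ± 0.70 SE, adjusted p = 0.18). The loop mutants were nearly equal and wild type lay among the pocket mutants. miR-296-5p, the partner of miR-296-3p, had 116 and 158 CPM in the loop mutants, against 416, 593 and 400 CPM in the pocket mutants and 598 CPM in wild type. miR-148a-5p had 66.1 and 56.6 CPM in the loop mutants, against 595, 115 and 403 CPM in the pocket mutants and 211 CPM in wild type. Its pocket mutants spanned a wider range than the gap to the nearest loop mutant.

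In the miR-290 cluster, miR-290-5p had 1006 and 1046 CPM in the loop mutants, against 2020, 4649 and 6802 CPM in the pocket mutants and 3855 CPM in wild type. miR-291a-3p, one of the stem cell miRNAs with the seed AAGUGCU that promote the rapid cell cycle of these cells, had 1290 and 4449 CPM in the loop mutants, against 6051, 6007 and 8086 CPM in the pocket mutants and 7032 CPM in wild type. Both were low in both loop mutants, while miR-291a-5p from the same hairpin was high there. The other miRNAs named on this side, miR-295-3p, miR-340-5p, miR-363-3p, miR-369-5p, miR-467e-5p, miR-872-3p and miR-92a-1-5p, had gaps of 1.21-fold to 2.13-fold. The 24 named miRNAs had 1 to 197 counts in the empty control, whose total was 33461.

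**Figure D3:**
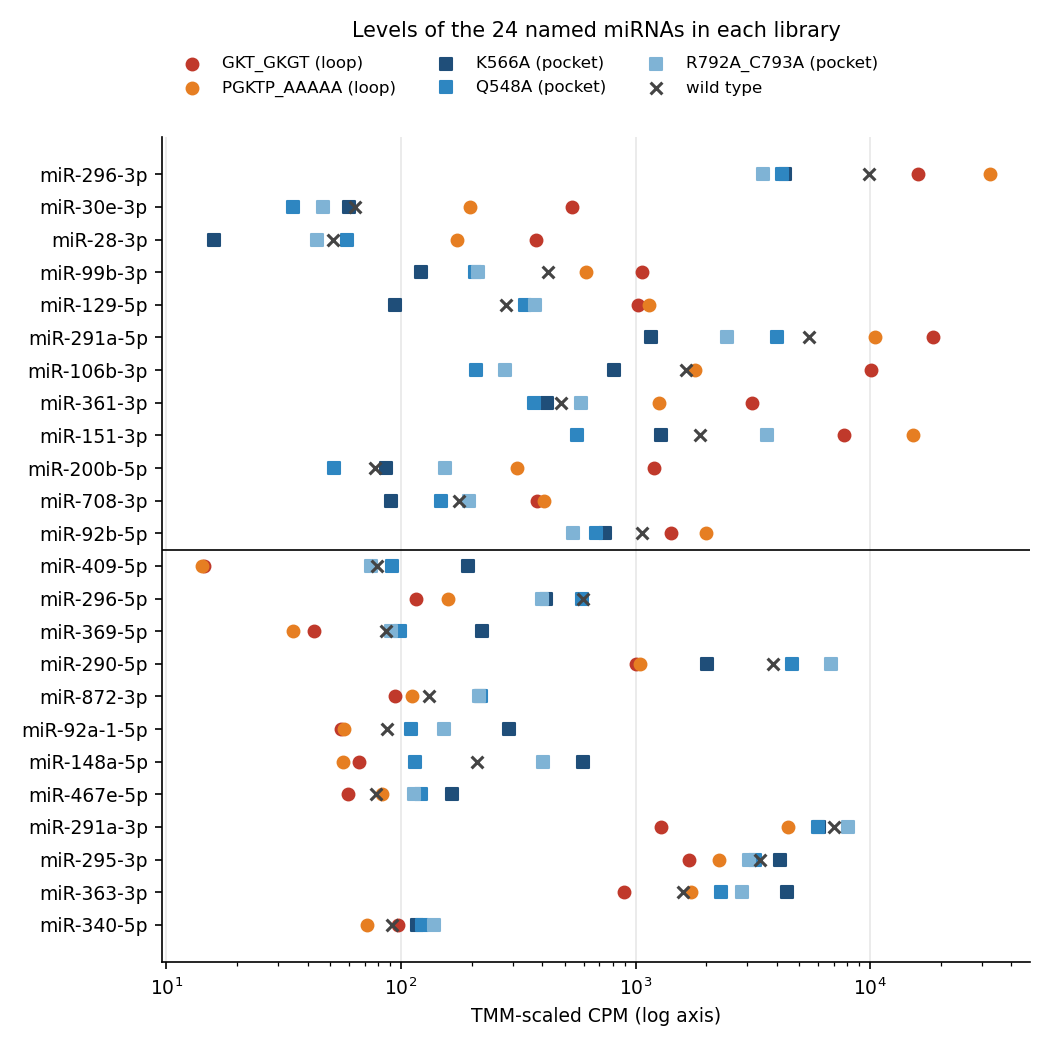
TMM-scaled CPM on a log axis in the 2 loop mutants, the 3 pocket mutants and wild type, for the 12 miRNAs with the widest gap in each direction. The upper block is higher and the lower block lower in both loop mutants, and wild type is the separate marker.

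The lowest adjusted p in edgeR, 0.113, belonged to the C-first miR-15b-3p and miR-150-3p, which are below the level set for the 24. miR-15b-3p had 325 and 154 CPM in the loop mutants, against 18.5, 25.5 and 21.7 CPM in the pocket mutants and 68.3 CPM in wild type (log2 difference 3.45 ± 0.58 SE). miR-150-3p had 162 and 62.5 CPM in the loop mutants, against 6.97, 6.77 and 6.72 CPM in the pocket mutants and 11.7 CPM in wild type (log2 difference 4.04 ± 0.65 SE). Each was several-fold higher in both loop mutants, and the pocket mutants were close together.

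At the edge of separation the distances were small. Just inside, miR-27b-3p had 584 and 487 CPM in the loop mutants, against 1203, 607 and 587 CPM in the pocket mutants. Just outside, miR-148b-3p had 254 and 160 CPM in the loop mutants, against 552, 388 and 251 CPM in the pocket mutants. Of the 106 miRNAs without overlap, 20 had a class mean under 10 CPM, in 15 the loop mutants differed from each other by more than 2-fold, and in 60 the pocket mutants spanned more than 2-fold.

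Of the 5 most abundant miRNAs of wild type, only miR-292-5p did not overlap between the classes. miR-292-5p had a larger share of counts in both loop mutants than in any pocket mutant, as given above, with K566A farthest away. miR-293-3p had 43551 and 69438 CPM in the loop mutants, against 101666, 57813 and 43246 CPM in the pocket mutants, and the classes overlapped. miR-294-3p had 10120 and 22368 CPM in the loop mutants, against 51243, 22101 and 27658 CPM in the pocket mutants, and PGKTP_AAAAA lay just above Q548A. miR-292-3p and miR-433-3p also overlapped, miR-433-3p with 22996 and 13826 CPM in the loop mutants, against 5677, 30846 and 14207 CPM in the pocket mutants. The abundant C-first miR-99b-5p, miR-191-5p and miR-25-3p overlapped as well, whereas the C-first miR-291a-5p did not. miR-99b-5p had 20370 and 18956 CPM in the loop mutants, against 2090, 17891 and 19358 CPM in the pocket mutants, with K566A alone far below.

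By family, the miR-290 cluster had 2 of 13 tested miRNAs above and 3 below all pocket mutants, and a median that differed from that of all tested miRNAs by 0.00 on the log2 scale with TMM and by -0.12 with total counts. The miR-17-92 cluster with its paralogs had 2 above and 5 below of 24, let-7 with miR-98 had 1 above and 1 below of 9, and the miR-30 family had 2 above and 0 below of 10. The miR-15/16 family, known for holding back cell cycle genes through its 5p guides, had its arms on opposite sides. The C-first 3p arms miR-15b-3p, miR-16-1-3p and miR-195-3p were above and the U-first 5p guides miR-15b-5p and miR-16-5p were below, out of 6 tested, and with total counts as library size 1 was above and 2 below. miR-16-1-3p had 170 and 83.7 CPM in the loop mutants, against 71.3, 8.57 and 14.0 CPM in the pocket mutants, with K566A close to PGKTP_AAAAA. The imprinted Sfmbt2 repeat cluster had 0 above and 8 below of 14 tested, with a median of -0.38 relative to all tested miRNAs (-0.40 with median-of-ratios factors and -0.50 with total counts). Its members are near-identical copies whose counts the mapping may share, so the 8 are not separate observations. None of the 8 had a gap of 2-fold, with 1.09-fold for miR-467c-5p and 1.36-fold for miR-467e-5p. The Dlk1-Dio3 cluster had 5 above and 9 below of 63 with TMM, 10 and 7 with median-of-ratios factors and 2 and 17 with total counts. With total counts the miR-290 cluster had 2 above and 8 below, the miR-17-92 list 0 and 12, let-7 with miR-98 0 and 5, the miR-30 family 1 and 2, and the Sfmbt2 cluster 0 and 11. With TMM these lists were read against 12.8% above and 18.7% below among all tested miRNAs. The values over all tested miRNAs were 5.93% above and 42.1% below with total counts. With median-of-ratios factors 54 of the 337 tested miRNAs lay above and 52 below.

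Members of a seed family did not always lie on the same side. The 2 tested miRNAs with the seed UUUCAGU, miR-30a-3p and miR-30e-3p, were both above, and the 2 with AGUGCAA, miR-130a-3p and miR-130b-3p, were both below although they begin with C. Within the let-7 seed GAGGUAG, the A-first let-7d-5p was below and the U-first let-7e-5p was above, of 8 tested. let-7d-5p had 33.4 and 51.5 CPM in the loop mutants, against 158, 123 and 59.3 CPM in the pocket mutants. let-7e-5p had 106 and 98.1 CPM in the loop mutants, against 76.1, 44.8 and 32.4 CPM in the pocket mutants. With CUCAAAC, miR-290-5p was below and miR-292-5p above.

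Arm use was compared as the log2 ratio of the arms with a pseudocount of 0.5, and also as the plain share of the 5p arm, because the ratio of a hairpin with an arm at 0 follows the counts of its other arm. Of 493 hairpins with both arms in the table, 402 had at least 100 counts over the 6 Ago2 libraries. In both loop mutants the ratio of 5p to 3p was above that of all 3 pocket mutants in 46 hairpins (11.4%) and below it in 81 (20.1%), together 127 (31.6%). By the plain share these were 38 (9.45%), 66 (16.4%) and 104 (25.9%). By both measures 99 hairpins did not overlap, and of the 28 found by the ratio alone 25 had an arm at 0 in a mutant library. The odds were at least 2-fold apart between the nearest loop and pocket libraries in 15 (3.73%) and 34 (8.46%) hairpins, together 49 (12.2%), of which 42 also did not overlap in share. limma on the log2 ratio of the arms, with Benjamini-Hochberg adjustment, called 0 hairpins in either direction. It found 15 (3.73%) with more 5p and 35 (8.71%) with less 5p in the loop mutants at an unadjusted p under 0.05, and its lowest adjusted p was 0.208. The arm higher in the loop mutants was the minor arm of wild type in 71 of the 127 by ratio and in 49 of the 104 by share. By ratio, 76 hairpins lay above and 122 below without K566A, 95 and 118 without GKT_GKGT, 84 and 144 without PGKTP_AAAAA and 73 and 114 without Q548A.

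Of the 104 hairpins that did not overlap in share, the arm higher in both loop mutants began with C in 40, with U in 20, with A in 13 and with G in 13, and had no assigned base in 18. Over all tested hairpins, C began 21.7% of the 651 arms with an assigned base, U 36.7%, A 29.0% and G 12.6%. Where one arm begins with C and the other with A, 15 of 32 hairpins had a higher share of the C-first arm in both loop mutants and 0 a lower one. Over these 32 hairpins the ratio between the arms, C-first over A-first, had a median log2 value of 3.88 and 2.57 in GKT_GKGT and PGKTP_AAAAA, against 1.27, 0.17 and 1.47 in K566A, Q548A and R792A_C793A and 0.75 in wild type. All loop values were above all pocket values, by 2.26 between the class means. Where C is paired with U, 18 of 63 hairpins had a higher share of the C-first arm and 1 a lower one, but the medians overlapped. They were -1.72 and -4.75 in the loop mutants, against -2.89, -5.22 and -3.62 in the pocket mutants and -4.20 in wild type. The class means differed by 0.67 for C over U, and by -0.84 without GKT_GKGT. C paired with G gave 3 toward C and 0 toward G of 18 hairpins.

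G over A gave 5 toward G and 0 toward A of 20 hairpins, G over U gave 7 and 5 of 35, and A over U gave 9 and 5 of 64. For A over U the log2 ratio had a median of -3.80 and -3.44 in the loop mutants, against -3.25, -4.58 and -3.96 in the pocket mutants, and the classes overlapped. The class means differed by 0.31, and by -0.013 without Q548A. Taken over any partner, C-first arms had the higher share in both loop mutants in 36 of 113 hairpins and the lower share in 1, against 25.9% of all tested hairpins that did not overlap in either direction. Leaving out hairpins that share an arm with another locus, these were 32 and 0 of 91. By the ratio with its pseudocount the 113 hairpins gave 45 toward C and 2 away from it. The 1 hairpin with the lower share was miR-128-1, whose C-first arm made up 0.052% and 0.051% of its counts in the loop mutants, against 0.075%, 0.068% and 0.062% in the pocket mutants. In 75 hairpins whose arms share their first base, 12 did not overlap in share. Of these 12, 2 had more 5p and 10 had less 5p in both loop mutants.

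**Figure D4:**
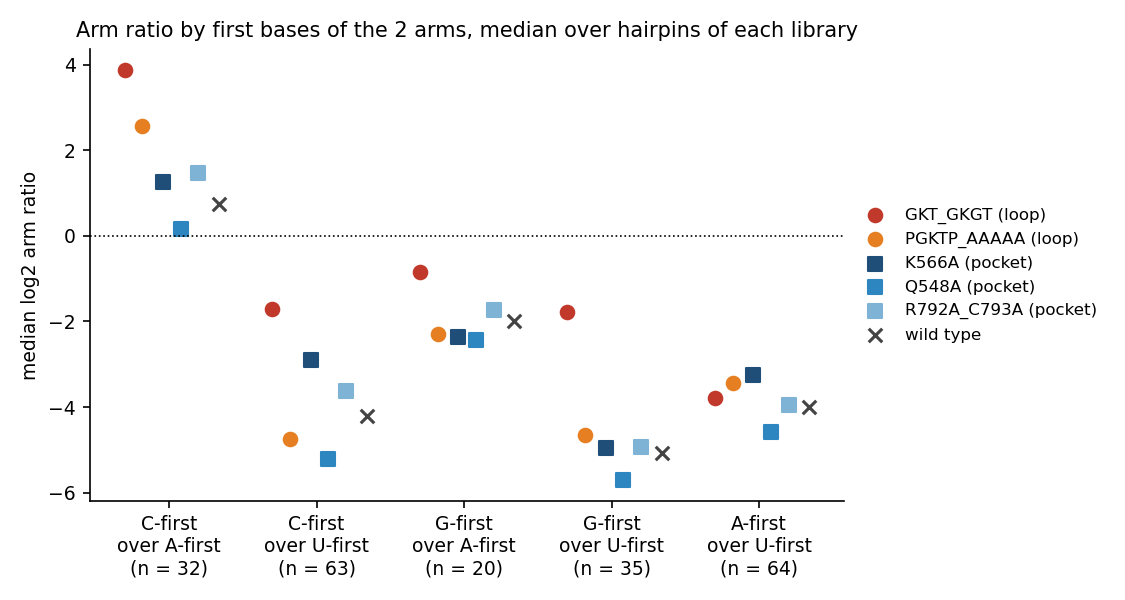
Median log2 ratio of the arms by pair of first bases, for the loop mutants, the pocket mutants and wild type. C over A is higher in both loop mutants than in every pocket mutant, and the classes overlap for C over U and for A over U.

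In several single hairpins the C-first arm was the larger one in both loop mutants. For miR-15b the 3p arm made up 94.8% and 91.0% of the hairpin's counts in GKT_GKGT and PGKTP_AAAAA, against 21.7%, 44.3% and 39.2% in K566A, Q548A and R792A_C793A and 68.1% in wild type. The arm that was the smaller one in all pocket mutants was the larger one in both loop mutants and in wild type (limma log2 difference in 5p over 3p -4.70 ± 0.97 SE, adjusted p = 0.208). For miR-291a the 5p arm made up 93.5% and 70.3% in the loop mutants, against 16.2%, 40.0% and 23.4% in the pocket mutants and 43.8% in wild type. The odds of the nearest libraries were 3.55-fold apart (limma log2 difference 4.10 ± 1.11 SE, adjusted p = 0.237).

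For miR-30e the 3p arm made up 92.2% and 73.2% in the loop mutants, against 31.1%, 39.7% and 16.8% in the pocket mutants and 59.0% in wild type. For miR-28 the 3p arm made up 94.97% and 81.3% in the loop mutants, against 29.5%, 53.4% and 43.2% in the pocket mutants and 51.0% in wild type. GKT_GKGT had the higher share of the C-first arm in miR-15b, miR-291a, miR-30e and miR-28. miR-200b, of a family known for keeping the epithelial state, showed the same arrangement, with its 5p arm at 95.3% and 85.2% in the loop mutants, against 42.9%, 48.2% and 62.0% in the pocket mutants. miR-199a had 91.8% and 94.97% of its counts on the 5p arm in the loop mutants, against 42.9%, 52.2% and 68.9% in the pocket mutants and 56.5% in wild type. In miR-106b the 3p arm was the larger one in every Ago2 library, at 99.6% and 96.3% in the loop mutants, against 87.3%, 70.5% and 76.0% in the pocket mutants and 96.1% in wild type.

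miR-296 had the widest gap of the named hairpins. Its G-first 3p arm made up 99.3% and 99.5% in the loop mutants, against 91.3%, 87.6% and 89.7% in the pocket mutants and 94.3% in wild type (limma log2 difference in 5p over 3p -4.28 ± 0.84 SE, adjusted p = 0.208). The 3p share of miR-1981 was 2.89% and 3.61% in the loop mutants, against 0.143%, 0.249% and 0.147% in the pocket mutants. miR-150, best known from lymphocytes, had 27.3% and 12.5% of its counts on the C-first 3p arm in the loop mutants, against 1.23%, 1.09% and 1.28% in the pocket mutants and 2.15% in wild type. In miR-296, miR-1981 and miR-150 the same arm was the larger one in every mutant, and the classes differed in its share. In miR-872, the A-first arm was the higher one, with 37.0% and 32.2% on 5p in the loop mutants, against 14.7%, 14.1% and 11.7% in the pocket mutants, paired with a U-first 3p arm.

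Of the other named hairpins, miR-129-1, miR-129-2, miR-143, miR-199b, miR-378 and miR-540 had more 5p and miR-151, miR-409 and miR-539 more 3p in both loop mutants. The C-first 5p arms of miR-129-1 and miR-129-2 have 1 sequence and share their counts, and miR-199b shares its 3p arm with miR-199a. miR-539 rested on 33 counts in PGKTP_AAAAA, where its 5p share was 63.6% with a 95% Wilson interval of 46.6% to 77.8%, counting error only. The arm with the higher share began with C in 12 of the 20 named hairpins, with G in 2 and with A in 1, and was not assigned in 5.

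**Figure D5:**
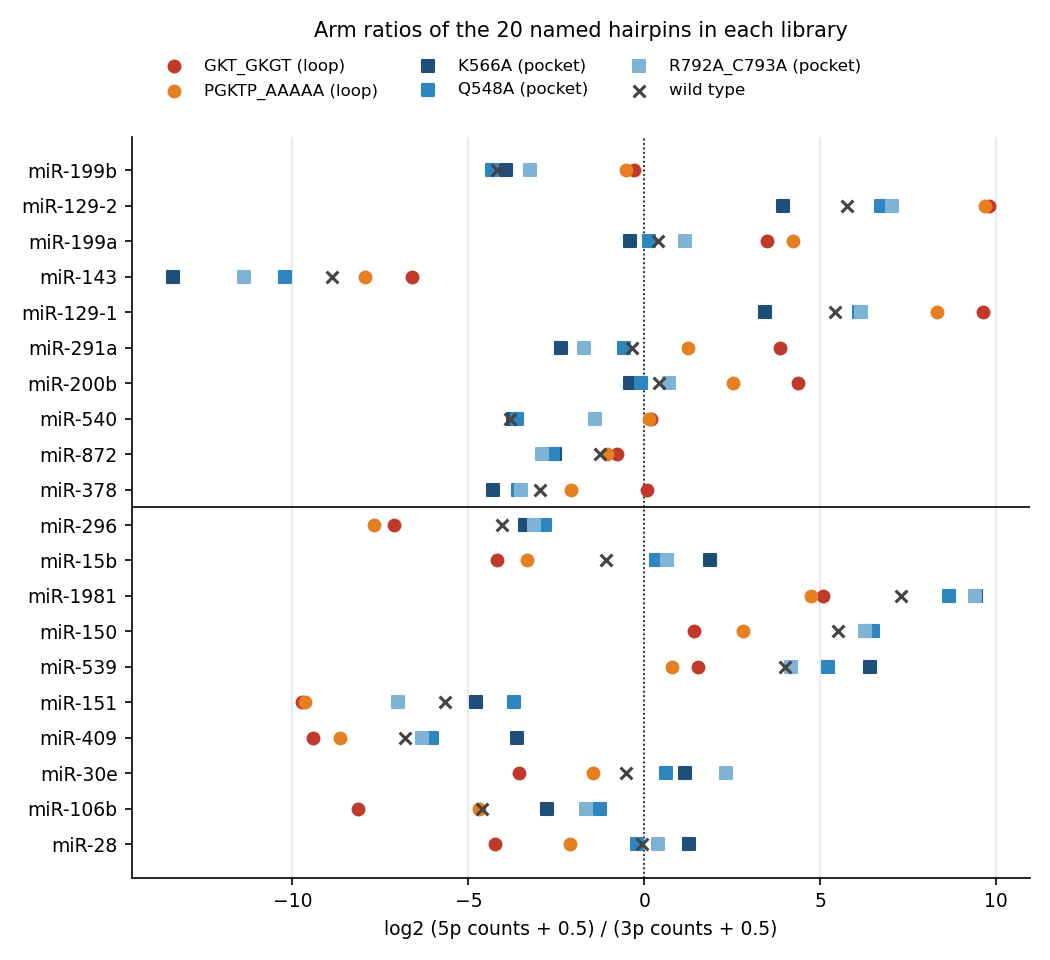
Log2 ratio of 5p to 3p counts, with the pseudocount given above, in the 2 loop mutants, the 3 pocket mutants and wild type. Shown are the 10 hairpins with the widest gap in each direction. The upper block has more 5p and the lower block less 5p in both loop mutants.

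In 9 of the 402 tested hairpins the larger arm of both loop mutants was the smaller one in all 3 pocket mutants. They were miR-142, miR-154, miR-15a, miR-15b, miR-16-1, miR-291a, miR-30a, miR-30e and miR-540, chosen by that criterion after the values were seen. In all but miR-154 the larger arm of the loop mutants begins with C. For miR-540 the 95% Wilson interval of the 5p share included an even split in GKT_GKGT (49.5% to 57.2%) and PGKTP_AAAAA (47.7% to 56.8%). The interval did so too for miR-142 in PGKTP_AAAAA (49.1% to 57.3%) and for miR-15a in K566A (46.5% to 54.5%). In these libraries counting error alone leaves the larger arm uncertain. miR-30a had 86.9% and 61.4% on its 3p arm in the loop mutants, against 41.8%, 25.5% and 19.6% in the pocket mutants. miR-16-1 had 80.2% and 66.4% on its 3p arm in the loop mutants, against 39.2%, 13.1% and 20.7% in the pocket mutants, with wild type at 23.9%. Its 5p arm has the same sequence as that of miR-16-2, whose counts it shares. In miR-154 the A-first 3p arm was at 61.1% and 55.4% in the loop mutants, against 3.67%, 37.8% and 14.3% in the pocket mutants, and wild type, at 54.2%, was close to PGKTP_AAAAA.

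Wild type lay nearer the pocket mutants than the loop mutants in the arm ratio for 101 of the 127 hairpins, and for 75 of the 99 that did not overlap in share either. Of the 127, it was within the range of the pocket mutants in 67, between the classes in 35, beyond the pocket mutants in 12, within the loop mutants in 10 and beyond them in 3. For levels the position was less one-sided: wild type lay nearer the pocket mean for 58 of 106 miRNAs, within the pocket range for 48, and between the classes for 33.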

How the data were processed

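Small RNAs captured with Flag-tagged Ago2 were sequenced, with 1 library per genotype. The deposited table holds raw counts that the authors assigned to 1078 mature miRNA loci. Per the submitters' processing notes, they used CASAVA 1.8.2 and TopHat2 2.0.9 with the mm9 build. Which program counted the reads, with what strand setting, and how it treated multiply mapping reads is not given in the labels, notes or headers used here. Of 64 names with several loci and counts, 55 had equal counts at their loci (within 1% or 3 counts), and the highest locus stood for each mature name. Merging 9 names whose counts matched another name left 950 miRNAs. Among the tested miRNAs, 11 overlap a neighbouring locus and are uncertain.

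Counts were scaled by TMM over the 6 Ago2 libraries, with factors between 0.684 (PGKTP_AAAAA) and 1.81 (K566A). The loop and pocket mutants were compared with edgeR 4.0.16 (quasi-likelihood test, Benjamini-Hochberg adjustment over the 337 miRNAs averaging 10 CPM or more) and with DESeq2 1.42.0 as an alternative. A 5p and a 3p locus with starts within 150 nt formed a hairpin, and limma 3.58.1 tested log2((5p + 0.5)/(3p + 0.5)) over 402 hairpins. A count of 0 allows up to 3 counts, at most 0.201 CPM in any Ago2 library. Without molecular identifiers, intervals and this limit describe counting error alone. Sequences came from RefSeq, matched for 755 names directly and 33 by symbol, and 10 whose length differed from the locus were left out. The edgeR and limma steps were tested on simulated data.

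The miRNAs named are those averaging at least 100 CPM with the 12 widest gaps in each direction, the hairpins those with at least 1000 counts and the 10 widest gaps, and in addition the top members of the lists and the lowest adjusted p-values. The classes, the members and the lists were chosen with earlier results of these data known.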

Additional observations from a re-analysis of the deposited data

How the results depend on the processing

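Every genotype is 1 library, so each leave-one-out value rests on a class with 1 library fewer and is easier to separate by construction. No paired analysis was possible because the labels give no replicate numbers and each library is a different mutant. The count of miRNAs above and below all pocket mutants, 43 and 63, was 20 and 142 with total counts as library size, 118 and 114 with no filter on low values, and 26 and 23 with a mean of at least 100 CPM. Leaving out each library gave 53 to 89 above and 75 to 118 below, among them 62 and 99 without GKT_GKGT, 89 and 118 without PGKTP_AAAAA and 68 and 104 without K566A. For hairpins, 46 and 81 became 58 to 95 and 103 to 144, among them 95 and 118 without GKT_GKGT, 84 and 144 without PGKTP_AAAAA, 76 and 122 without K566A and 73 and 114 without Q548A. edgeR called 0 miRNAs (7 to 44 higher and 2 to 38 lower at an unadjusted p under 0.05) and limma 0 hairpins (5 to 25 and 15 to 46) in every alternative, against 15 higher and 4 lower with DESeq2. Leaving out each library gave differences in median log2 ratio between the classes of 1.61 to 2.91 for C over A, -0.84 to 2.19 for C over U and -0.01 to 0.65 for A over U. C over U reversed to -0.84 without GKT_GKGT, and A over U to -0.013 without Q548A. Single miRNAs that reversed were miR-293-3p (0.039 without GKT_GKGT, 0.16 without K566A), miR-433-3p (-0.43 with total counts, -0.29 without GKT_GKGT, -0.29 without K566A), miR-191-5p (-0.49 with total counts) and miR-25-3p (0.34 without GKT_GKGT, 0.60 without K566A), none of them called. The cause was not tested. With arm shares in place of ratios with a pseudocount, an alternative chosen after seeing the data, 38 and 66 hairpins did not overlap. The direction of all 25 hairpins checked, the named ones and those whose larger arm switched, held under every alternative run. These hairpins were picked because the classes did not overlap, so leaving out a library could not reverse them. The higher count filter and limma with no trend leave the estimate as it is. Only the larger pseudocount and the thinning to the smallest library could have changed a direction.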

Other observations

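miRNAs higher in both loop mutants had a median GC content of 54.5% over 36 sequences, those lower had 45.5% over 49, and those that overlapped had 47.8% over 202. No test was run on these values.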
